A study of Mus musculus with 12 samples.

Results

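The erythroid and heme synthesis genes are a list of 34 genes that maturing red blood cells use. The genes were given by name with no threshold on their values, but were chosen with earlier results of these data known. They comprise the enzymes that build heme, the transcription factors of the red cell lineage, receptors and iron carriers, globins, proteins of the red cell membrane and other erythroid proteins. Of the 34 genes, 32 had a probe set that names them alone, among 19938 genes read in this way from 35556 probe sets. The other two, *Ahsp* and *Epb41*, are not analysed here. All values are log2 signals, on which a difference of 1 is a doubling of the signal, and levels of different genes are not set against each other because each probe set has its own response.

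The arrays came from whole livers of suckling mouse pups at postnatal day 2 (P2), 6 *Ppara*-/- and 6 *Ppara*+/+, each group with 3 males and 3 females and 1 array per pup. *Ppara* encodes the nuclear receptor PPARα, and the *Ppara*-/- pups lack it in every cell and not in the liver alone. The study obtained both genotypes from crosses of heterozygous parents and gave no agent to these pups, and the labels do not say which litter each pup came from. By the study's methods the pups of a genotype came from fewer litters than there were pups, so some shared a litter. The strain is SV129 in the labels and a C57BL/6 background in the study's methods.

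Before and shortly after birth the mouse liver is a blood-forming organ as well as a metabolic one. Erythroblasts, the nucleated precursors of red cells, divide and mature there around resident macrophages, fill with hemoglobin and then leave for the circulation, while blood formation moves to the bone marrow. Heme, the iron-bearing part of hemoglobin, is made by a chain of enzymes that begins and ends in the mitochondrion, and apart from the erythroid first enzyme the chain also runs in hepatocytes. In whole liver, fewer erythroid cells and less of each transcript per erythroid cell give the same reading and cannot be told apart.

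*Ppara* itself checked the labels. Its lowest, median and highest log2 signals were 10.21, 10.27 and 10.33 in *Ppara*-/- livers, against 10.98, 11.21 and 11.27 in *Ppara*+/+ livers, with no overlap. The log2 fold change, *Ppara*-/- minus *Ppara*+/+, was -0.89 with SE 0.0488 (limma adjusted p = 1.2e-06), and the position of this probe set relative to the disruption is not known here. Array medians over all probe sets lay between 7.16 and 7.20, and correlations between arrays lay between 0.989 and 0.996. The 12 measured hepatocyte markers had a mean signal of 13.21 to 13.25 in *Ppara*-/- livers and 13.12 to 13.19 in *Ppara*+/+ livers, so the labelled tissue was present in every array. Of these markers *Apoc3* had the largest log2 fold change, 0.82, while the median over the 12 was 0.02.

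Erythroid promoters are read by GATA1, which binds the letters GATA with preferred flanks, and by KLF1, which binds CACCC boxes. Promoter windows from RefSeq (build GRCm38.p6), with 250 bases before and 50 bases after the start of the transcript, were found for 24 of the 32 measured genes. The letters AGATAA or TGATAA, on either strand and with overlapping matches counted singly, occurred in the window of 17 of these 24 genes (70.8%), against 21.0% of the 27025 genes with a window. A CACCC box, written here as CCACACCC or CCACGCCC on either strand, occurred in 2 of 24 (8.3%) against 9.7% of all genes, and the NF-E2 core TGAGTCA in 2 of 24 (8.3%) against 5.9%. These are matches of letters and not measured binding, and other spellings of the CACCC box were not searched. The windows of 5 genes that recur in the results are shown in the orientation of the gene, with every match to the 3 motifs in capitals. They are *Alas2* (chrX:150547167-150547466, plus strand), *Klf1* (chr8:84901732-84902031, plus strand), *Epor* (chr9:21963527-21963826, minus strand), *Icam4* (chr9:21029182-21029481, plus strand) and *Trim10* (chr17:36869324-36869623, plus strand). A match to the GATA letters began 86 bases before the start of *Alas2*, 80 before that of *Klf1*, 54 before that of *Epor*, 43 before that of *Icam4* and 163 before that of *Trim10*. *Icam4* also had a CACCC box 64 bases before its start, and *Trim10* an NF-E2 core 56 bases before its start. All 5 windows shown thus hold a match, which is not so for every gene of the list. The windows of *Alad*, *Urod*, *Ppox*, *Gata1*, *Tfrc*, *Tspo2* and *Bpgm* held no match to any of the 3 motifs.
Alas2: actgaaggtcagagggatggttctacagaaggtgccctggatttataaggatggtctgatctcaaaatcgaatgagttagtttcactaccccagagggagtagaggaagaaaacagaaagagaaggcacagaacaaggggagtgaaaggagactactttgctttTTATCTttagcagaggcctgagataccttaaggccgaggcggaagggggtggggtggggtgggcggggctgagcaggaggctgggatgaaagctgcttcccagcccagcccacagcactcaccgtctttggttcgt
Klf1: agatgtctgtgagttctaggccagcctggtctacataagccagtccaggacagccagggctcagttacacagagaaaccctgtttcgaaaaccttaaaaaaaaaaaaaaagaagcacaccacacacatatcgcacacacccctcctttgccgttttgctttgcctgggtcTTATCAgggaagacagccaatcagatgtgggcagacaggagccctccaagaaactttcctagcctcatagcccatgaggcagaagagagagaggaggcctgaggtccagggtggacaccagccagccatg
Epor: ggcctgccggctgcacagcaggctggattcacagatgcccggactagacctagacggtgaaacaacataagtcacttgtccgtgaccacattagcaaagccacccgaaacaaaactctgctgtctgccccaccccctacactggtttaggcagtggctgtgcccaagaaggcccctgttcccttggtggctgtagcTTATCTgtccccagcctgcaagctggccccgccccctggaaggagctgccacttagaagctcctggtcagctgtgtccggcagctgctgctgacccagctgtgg
Icam4: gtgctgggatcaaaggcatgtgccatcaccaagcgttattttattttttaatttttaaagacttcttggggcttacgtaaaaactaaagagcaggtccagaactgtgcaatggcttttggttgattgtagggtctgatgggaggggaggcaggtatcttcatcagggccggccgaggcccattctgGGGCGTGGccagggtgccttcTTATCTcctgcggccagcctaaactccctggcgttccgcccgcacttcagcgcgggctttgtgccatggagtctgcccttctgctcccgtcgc
Trim10: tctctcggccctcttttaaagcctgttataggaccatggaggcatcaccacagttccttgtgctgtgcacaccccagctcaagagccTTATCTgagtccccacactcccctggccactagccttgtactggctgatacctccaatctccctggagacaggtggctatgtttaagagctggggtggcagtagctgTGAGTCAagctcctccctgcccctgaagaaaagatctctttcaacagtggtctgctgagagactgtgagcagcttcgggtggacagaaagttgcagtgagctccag

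The question asked of these genes was whether the livers of *Ppara*-/- pups differed from those of *Ppara*+/+ pups in their red cell program. The measured differences were small and nearly all on one side. The genes were chosen with earlier results known and moved together from pup to pup, so the count on one side is a description. The log2 fold change was below 0 for 31 of the 32 genes, against 54.9% of all genes, and its median was -0.19, against -0.01 over all genes. It ran from -0.37 for *Trim10* to 0.04 for *Hbb-bh1*, and for 27 of the 32 genes it lay between -0.30 and -0.10. None of the 32 genes passed the limma test at an adjusted p under 0.05, in either direction, where 1.12% of all genes were lower and 1.99% higher in *Ppara*-/- livers. At an unadjusted p under 0.05 the counts were 22 lower and 0 higher, against 7.89% of all genes lower and 9.27% higher. The exact two-sided Mann-Whitney test could not call a gene after Benjamini-Hochberg adjustment, since its smallest possible p, 0.00216 for 6 against 6, came to an adjusted 0.0691, and 0 of all probe sets passed. The smallest adjusted p of the list was 0.0845, for *Epor*.

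**Figure D1:**
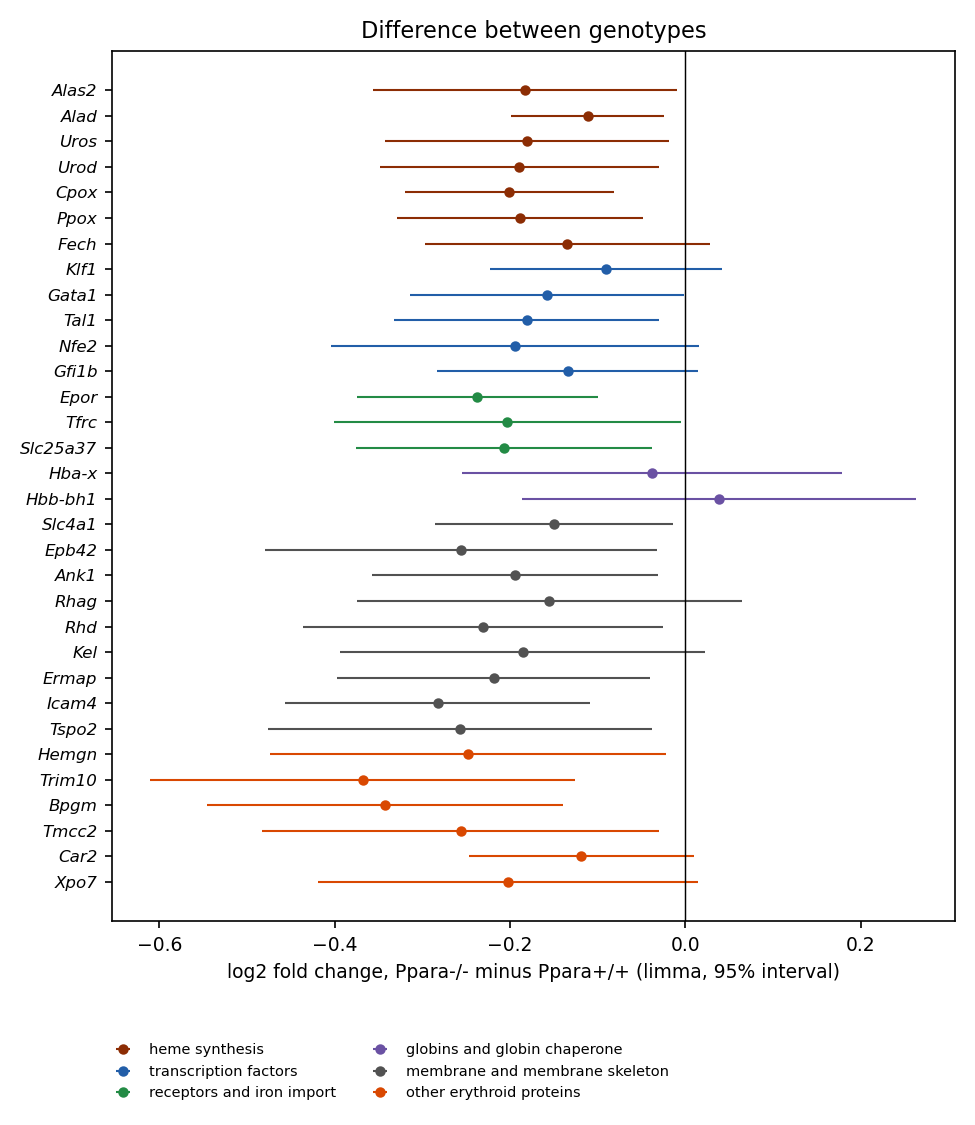
Log2 fold change of each of the 32 genes, *Ppara*-/- minus *Ppara*+/+ (points), with its 95% interval from limma (bars), in the order of roles used in the text and coloured by role. Of the 32 points 31 lie left of 0, and 22 of the intervals lie wholly below 0 before any adjustment for the number of tests.

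The 7 measured enzymes of heme synthesis all had a log2 fold change below 0, with a median of -0.18, and 6 of them had an unadjusted p under 0.05. *Alas2*, the erythroid enzyme that makes the first and rate-limiting precursor of heme, had lowest, median and highest log2 signals of 12.15, 12.45 and 12.60 in *Ppara*-/- livers and 12.36, 12.64 and 12.69 in *Ppara*+/+ livers. All *Ppara*+/+ livers but replicate 7 lay above every *Ppara*-/- liver, and replicate 7 lay at 12.36 among the *Ppara*-/- values. *Alas2* had a log2 fold change of -0.18 with SE 0.0793 (limma adjusted p = 0.310).

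*Cpox*, coproporphyrinogen oxidase, came closest to the threshold among the enzymes. Its lowest, median and highest log2 signals were 12.01, 12.03 and 12.12 in *Ppara*-/- livers, against 12.07, 12.27 and 12.40 in *Ppara*+/+ livers. The *Ppara*-/- values lay close together, with an SD of 0.05 against 0.11 in *Ppara*+/+ livers (n = 6 each), and only *Ppara*+/+ replicate 7 reached into their range. For *Cpox* the log2 fold change was -0.20 with SE 0.0544 (limma adjusted p = 0.0909).

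The other enzymes follow the order of the pathway. *Alad*, which joins the first precursors into porphobilinogen, differed by -0.11 with SE 0.0399, and its values were the tightest of the enzymes over both genotypes, 13.25 to 13.37 in *Ppara*-/- livers and 13.30 to 13.47 in *Ppara*+/+ livers. *Uros* and *Urod*, which close and then trim the porphyrin ring, had log2 fold changes of -0.18 and -0.19. *Ppox*, which makes protoporphyrin, stood at -0.19, and *Fech*, which inserts the iron, at -0.13. Their limma adjusted p-values lay between 0.187 for *Ppox* and 0.436 for *Fech*, so none of these differences passed the threshold.

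The 5 transcription factors of the lineage had a median log2 fold change of -0.16, with all 5 below 0 and 2 at an unadjusted p under 0.05. *Gata1*, the master regulator of the red cell lineage, had lowest, median and highest log2 signals of 9.90, 10.08 and 10.20 in *Ppara*-/- livers and 9.99, 10.23 and 10.37 in *Ppara*+/+ livers. The genotypes overlapped, and the log2 fold change was -0.16 with SE 0.0715 (limma adjusted p = 0.329). *Klf1*, the activator of adult globin and of many red cell membrane genes, ran from 10.24 to 10.51 in *Ppara*-/- livers and from 10.25 to 10.56 in *Ppara*+/+ livers, almost the whole of each range shared. Its log2 fold change of -0.09 with SE 0.0604 was the closest to 0 outside the embryonic globins (limma adjusted p = 0.535). *Tal1*, a partner of GATA1 on DNA, stood at -0.18, *Nfe2*, a subunit of the globin regulator NF-E2, at -0.19, and *Gfi1b*, a repressor needed for erythroid maturation, at -0.13.

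The receptors and iron carriers held the smallest adjusted p of the list. *Epor*, the receptor through which erythropoietin keeps erythroid progenitors alive, had lowest, median and highest log2 signals of 9.998, 10.08 and 10.22 in *Ppara*-/- livers and 10.12, 10.35 and 10.44 in *Ppara*+/+ livers. Replicate 7 was the only *Ppara*+/+ liver to lie among the *Ppara*-/- livers, so that *Epor* was lower in *Ppara*-/- pups in 34 of the 36 pairs of 1 pup of each genotype. The difference in *Epor* was -0.24 on the log2 scale with SE 0.0630 (limma adjusted p = 0.0845), a 1.18-fold difference in signal.

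*Tfrc*, the transferrin receptor that brings iron into the cell, spread more widely in *Ppara*+/+ livers (11.58 to 12.16) than in *Ppara*-/- livers (11.61 to 11.87). Its lowest value of all 12 was in *Ppara*+/+ replicate 7, and its log2 fold change was -0.20 with SE 0.0904 (limma adjusted p = 0.321). *Slc25a37*, mitoferrin, which carries iron into the mitochondrion of erythroblasts, stood at -0.21 with SE 0.0769 (limma adjusted p = 0.230). All 3 genes of this group had an unadjusted p under 0.05.

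The globins stood apart from the rest of the list. *Hba-x* and *Hbb-bh1* are the zeta and beta-H1 globins of the primitive red cells of the early embryo. They were the only genes of the list whose mean signal did not lie above every array median. *Hba-x* had lowest, median and highest log2 signals of 6.75, 7.13 and 7.47 in *Ppara*-/- livers and 7.09, 7.16 and 7.31 in *Ppara*+/+ livers. *Hbb-bh1* had 5.66, 5.84 and 6.21 in *Ppara*-/- livers and 5.64, 5.85 and 6.10 in *Ppara*+/+ livers. The *Ppara*-/- values of *Hba-x* spread more widely than the *Ppara*+/+ values and on both sides of them (SD 0.26 against 0.08, n = 6 each), while those of *Hbb-bh1* overlapped nearly throughout, with log2 fold changes of -0.04 (SE 0.0992) and 0.04 (SE 0.103) and limma adjusted p-values of 0.905 for both. The sign of both is unsettled, since *Hba-x* turned above 0 with array weights and without *Ppara*-/- replicate 6, and *Hbb-bh1* turned below 0 without *Ppara*-/- replicate 10 and without *Ppara*+/+ replicate 1. The adult alpha and beta globins are named only by probe sets shared between several globin genes and were therefore not read.

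The 9 measured genes of the red cell membrane and its skeleton all had a log2 fold change below 0, with a median of -0.22, and 7 had an unadjusted p under 0.05. *Icam4*, an adhesion protein of the erythroblast surface, had lowest, median and highest log2 signals of 8.09, 8.18 and 8.44 in *Ppara*-/- livers and 8.24, 8.54 and 8.64 in *Ppara*+/+ livers. The genotypes overlapped through *Ppara*-/- replicate 10 at the top of its group and *Ppara*+/+ replicate 7 at the bottom of its own. The log2 fold change of -0.28 with SE 0.0795 was the largest of this group (limma adjusted p = 0.104).

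*Slc4a1*, the anion exchanger band 3 that anchors the membrane to its skeleton, stood at 12.87, 13.07 and 13.21 (lowest, median and highest) in *Ppara*-/- livers and 13.02, 13.22 and 13.26 in *Ppara*+/+ livers. Its log2 fold change was -0.15 with SE 0.0621 (limma adjusted p = 0.286), and the groups again met at *Ppara*+/+ replicate 7. *Epb42* and *Ank1*, a band 3-binding protein and the ankyrin that ties band 3 to spectrin, had log2 fold changes of -0.26 and -0.19. *Rhag* and *Rhd* of the Rh complex stood at -0.15 and -0.23, and the blood group proteins *Kel* and *Ermap* at -0.19 and -0.22. *Tspo2*, an erythroid member of the translocator protein family, stood at -0.26. The adjusted p-values of these 8 genes, *Slc4a1* among them, lay between 0.232 for *Ermap* and 0.518 for *Rhag*.

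The remaining erythroid proteins had the most negative median of any role, -0.25 over 6 genes, with 4 at an unadjusted p under 0.05. *Trim10*, a RING finger protein needed for terminal erythroid differentiation, had lowest, median and highest log2 signals of 10.27, 10.53 and 10.82 in *Ppara*-/- livers and 10.50, 10.96 and 11.09 in *Ppara*+/+ livers. Apart from *Ppara*+/+ replicate 7, every *Ppara*+/+ liver lay above every *Ppara*-/- liver. With a log2 fold change of -0.37 and SE 0.111 the difference was the largest of the 32 genes, a 1.29-fold difference, and its limma adjusted p was 0.133.

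*Bpgm*, the enzyme that makes 2,3-bisphosphoglycerate and so sets the oxygen affinity of hemoglobin, had 8.97, 9.28 and 9.54 in *Ppara*-/- livers and 9.48, 9.57 and 9.73 in *Ppara*+/+ livers. Here the overlap came from *Ppara*-/- replicate 10, the highest of its group, while *Ppara*+/+ replicate 7 lay close to replicate 2 of its genotype. The log2 fold change was -0.34 with SE 0.0928 (limma adjusted p = 0.0913), a 1.27-fold difference. *Hemgn*, the nuclear protein hemogen, stood at -0.25, *Tmcc2*, a transmembrane protein, at -0.26, *Xpo7*, an exportin used in the maturing erythroblast nucleus, at -0.20, and *Car2*, the carbonic anhydrase of red cells, at -0.12, with adjusted p-values between 0.274 and 0.375.

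The pups of 1 genotype also differed from each other, and the genes moved together from pup to pup. For 25 of the 32 genes the log2 fold change was larger in size than the SD within either genotype. For each array the deviation of every gene from its own mean over the 12 arrays was taken, and the median over the 32 genes was read. In *Ppara*-/- males it was -0.22, -0.11 and -0.03 (replicates 4, 5 and 6) and in *Ppara*-/- females 0.09, -0.06 and -0.25 (replicates 10, 11 and 12). In *Ppara*+/+ males it was 0.07, 0.09 and 0.18 (replicates 1, 2 and 3) and in *Ppara*+/+ females -0.15, 0.22 and 0.20 (replicates 7, 8 and 9). One liver in each genotype crossed over, replicate 10 among the *Ppara*-/- and replicate 7 among the *Ppara*+/+, and both were female. The mean of these array medians was -0.10 ± 0.13 in *Ppara*-/- livers and 0.10 ± 0.14 in *Ppara*+/+ livers (SD, n = 6 each). The median deviation over all genes lay between -0.02 and 0.01 in every array.

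**Figure D2:**
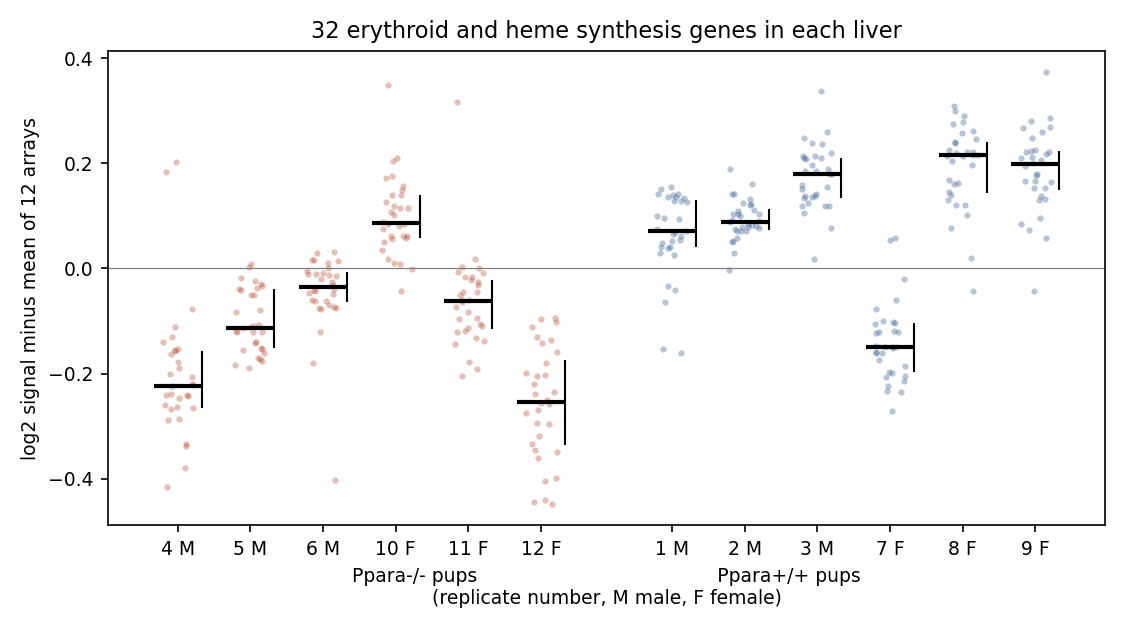
Deviation of each of the 32 genes from its mean over the 12 arrays, on the log2 scale, by pup (points), with the median (thick line) and the lower to upper quartile (thin line) per array. The medians of *Ppara*-/- pups run from -0.25 to 0.09 and those of *Ppara*+/+ pups from -0.15 to 0.22, and the points of each pup shift as a block.

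All 32 genes were below their own mean in *Ppara*-/- replicate 12 and all 32 above it in *Ppara*+/+ replicate 3. *Ppara*-/- replicate 12 held the lowest value of all arrays for 18 genes and *Ppara*-/- replicate 4 for 9, while *Ppara*+/+ replicates 8 and 9 held the highest for 24. *Ppara*+/+ replicate 7 was the lowest of its genotype for 30 genes, and *Ppara*-/- replicate 10 the highest of its genotype for 29. Both genotypes therefore overlapped for each of the 32 genes, where 1.43% of all genes were lower and 2.88% higher in *Ppara*-/- livers with no overlap. Per gene, between 17 and 34 of the 36 pairs of pups had the lower value in the *Ppara*-/- pup, with a median of 31.

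**Figure D3:**
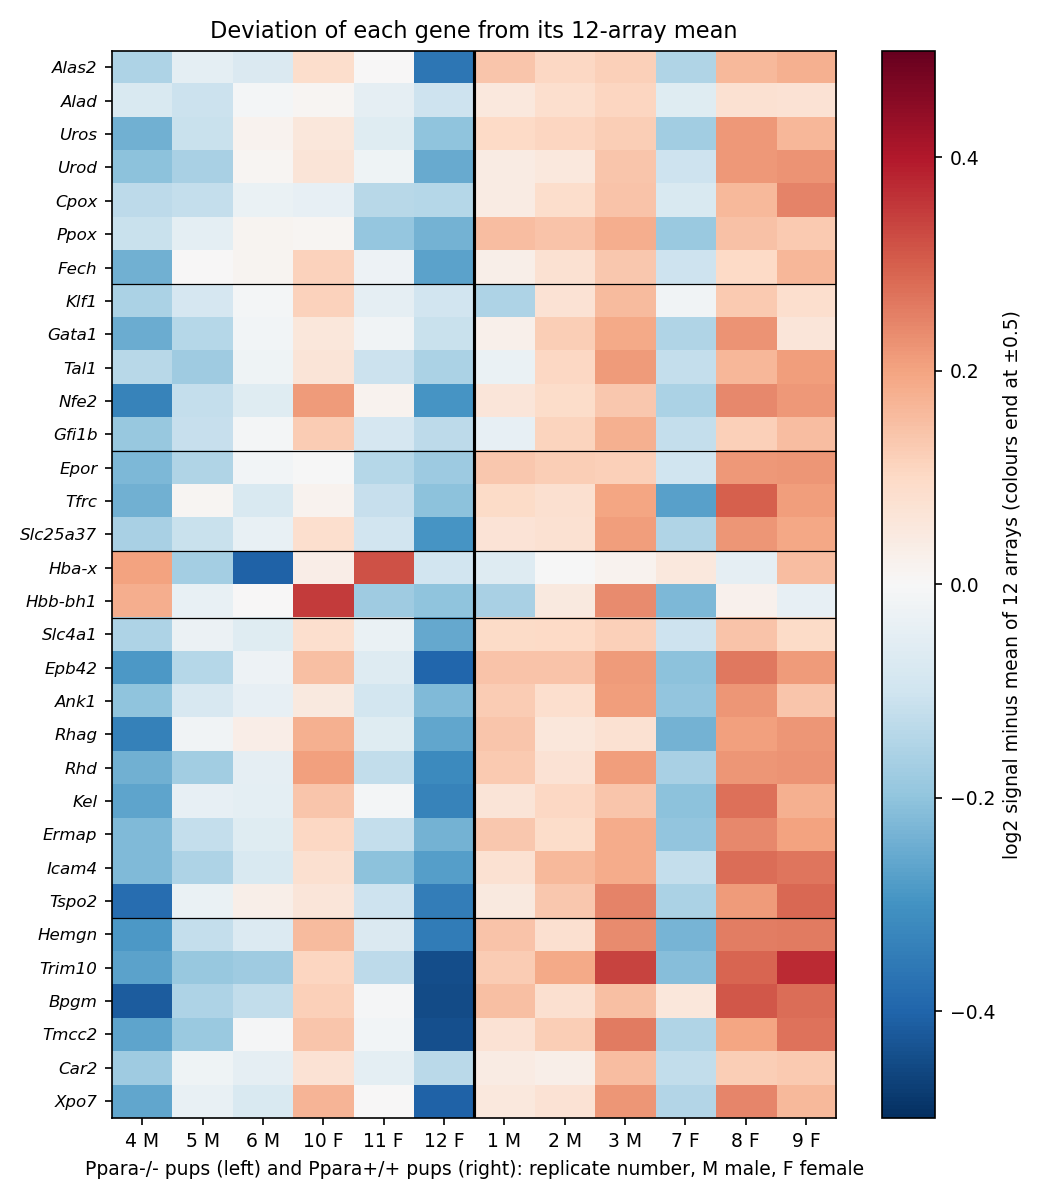
Deviation of each gene (rows, by role, separated by lines) from its mean over the 12 arrays, in log2 units, for each pup (columns, *Ppara*-/- left of the black line and *Ppara*+/+ right of it). Columns are nearly uniform in colour except in the rows of *Hba-x* and *Hbb-bh1*, and *Ppara*-/- replicate 10 and *Ppara*+/+ replicate 7 carry the colour of the other genotype.

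Pearson's r between a gene and the median of the list over the 12 arrays, given as a description because the gene is itself part of that median, was above 0.9 for 28 of the 32 genes. It was 0.773 for *Klf1* and 0.888 for *Ppox*, and only 0.0204 for *Hba-x* and 0.369 for *Hbb-bh1*. The genes outside the list whose levels were most like the median, out of 19906, were *Ubac1* (r = 0.992, Spearman's rho = 0.986), *Mkrn1* (0.986 and 0.972), *Dmtn* (0.985 and 0.958) and *Gypc* (0.982 and 0.979). Next came *Rad21* (0.981 and 0.979), *Apol8* (0.981 and 0.944), *Marchf2* (0.980 and 1) and *Trak2* (0.979 and 0.972). *Dmtn* encodes dematin of the membrane skeleton and *Gypc* glycophorin C. These 8 genes were picked for their r over the same 12 arrays, and their log2 fold changes between -0.31 and -0.11 did not pass the limma test (adjusted p from 0.154 to 0.306).

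Among the 12 arrays, *Ppara*+/+ replicate 7 was the only one whose removal brought genes of the list past the threshold. Without it, 9 genes were lower in *Ppara*-/- livers at a limma adjusted p under 0.05, namely *Uros*, *Cpox*, *Ppox*, *Epor*, *Tfrc*, *Ank1*, *Ermap*, *Icam4* and *Trim10*, and none was higher, against 1.75% of all genes lower and 3.60% higher. Without it *Epor* had a log2 fold change of -0.29 (adjusted p = 0.0105), *Cpox* -0.24 (adjusted p = 0.0153) and *Trim10* -0.46 (adjusted p = 0.0172). The median of the list was then -0.25, and 10 genes had no overlap between the genotypes, against 2.51% of all genes. Leaving out any other single array left 0 genes called, against 0.81% to 1.09% of all genes lower, with a median between -0.23 and -0.16. The labels give no reason to leave out replicate 7, and in limma's array weights it had the lowest weight of the 12, 0.420.

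Male and female pups gave the same sign. The median log2 fold change was -0.22 within males, with 31 genes below 0, and -0.16 within females, with 30 below 0, and 0 genes passed the limma test within either sex (0.928% and 0.808% of all genes did). Counts without overlap within each sex were added after seeing the data. Within males 27 of the 32 genes were lower in each *Ppara*-/- pup than in any *Ppara*+/+ pup, against 8.05% of all genes. In males 0 genes were higher in this way, against 10.1%. The exceptions to the first were *Klf1*, *Tal1*, *Gfi1b*, *Hba-x* and *Hbb-bh1*. Within females 0 genes were lower in this way, against 7.67% of all genes, since replicates 7 and 10 are females. The genes moved together from pup to pup, so these counts are not counts of independent results. The difference between the sexes in the effect of genotype was tested as an interaction, and 0 genes of the list passed, nor did any have an unadjusted p under 0.05, against 0.00% and 1.79% of all genes. Between males and females themselves 0 of the 32 genes differed by limma at an adjusted or an unadjusted p under 0.05 (0.0401% and 2.78% of all genes), with log2 fold changes, male minus female, from -0.14 to 0.11.

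Other genes of the same cells, taken from lists outside the 32, lay mostly on the same side, and none of them passed the limma test with all 12 arrays. Of 20 measured genes of late erythroblasts and reticulocytes, 17 were below 0 with a median of -0.19. At an unadjusted p under 0.05, 10 were lower and 2 higher, against 7.89% of all genes lower and 9.27% higher. *Ypel4* (-0.32) and *Mkrn1* (-0.31) had the largest differences there. Of 19 other red cell membrane genes 17 were below 0 with a median of -0.14, led by *Tmod1* (-0.25), a tropomodulin of the membrane skeleton, and *Dmtn* (-0.24).

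Regulators and general heme genes were closer to 0. Of 21 other erythroid regulators 18 were below 0 with a median of -0.09, and the largest differences were *Cish* at 0.23, a feedback inhibitor of cytokine receptors, and *Lmo2* at -0.21, a bridging partner of TAL1 and GATA1. Of 21 other heme and iron genes 12 were below 0 with a median of -0.01, led by *Abcb10* (-0.24) and *Tmem14c* (-0.20), both of the mitochondrial membrane of erythroid cells. Of 4 further measured globins 3 were below 0, with *Hbq1a* at -0.34 and *Hbq1b* at -0.19. All 17 measured genes of cell division were below 0 with a median of -0.12, led by *Cenpf* (-0.21) and *Birc5* (-0.20). Of the 17, 13 had an unadjusted p under 0.05, against 7.89% of all genes lower. Some genes of these lists passed at a limma adjusted p under 0.05 without *Ppara*+/+ replicate 7. Lower were 4 late erythroblast genes, 1 membrane gene, 2 regulators, 2 heme and iron genes and 2 cell division genes. Higher was 1 heme and iron gene. Over all genes 1.75% were then lower and 3.60% higher.

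Markers of other liver cells also differed between pups. All 14 measured Kupffer cell markers, genes of the resident macrophages, were above 0 with a median of 0.20. All 14 markers of liver endothelium were above 0 with a median of 0.13. None of either passed the limma test with all 12 arrays. At an unadjusted limma p under 0.05, 10 Kupffer cell and 8 endothelial markers were higher and 0 lower. Over all genes 9.27% were higher and 7.89% lower in this way. Without *Ppara*+/+ replicate 7, 5 Kupffer cell and 3 endothelial markers passed, all higher in *Ppara*-/- livers, against 3.60% of all genes higher. The mean signal of the Kupffer cell markers lay between 9.72 and 9.87 in *Ppara*-/- livers and between 9.45 and 9.86 in *Ppara*+/+ livers. The dimmest of these markers had a mean of 6.83 over the 12 arrays, below every array median. In *Ppara*+/+ replicate 7, where the erythroid genes were low, the median deviation of the Kupffer cell markers was 0.17, and it was below 0 in the other 5 *Ppara*+/+ livers. In *Ppara*-/- replicate 10, where the erythroid genes were high, it was 0.19, the highest of all. Endothelial markers had a mean signal of 10.22 to 10.33 in *Ppara*-/- livers and 10.06 to 10.25 in *Ppara*+/+ livers. The part of these cells in the erythroid differences was not tested.

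**Figure D4:**
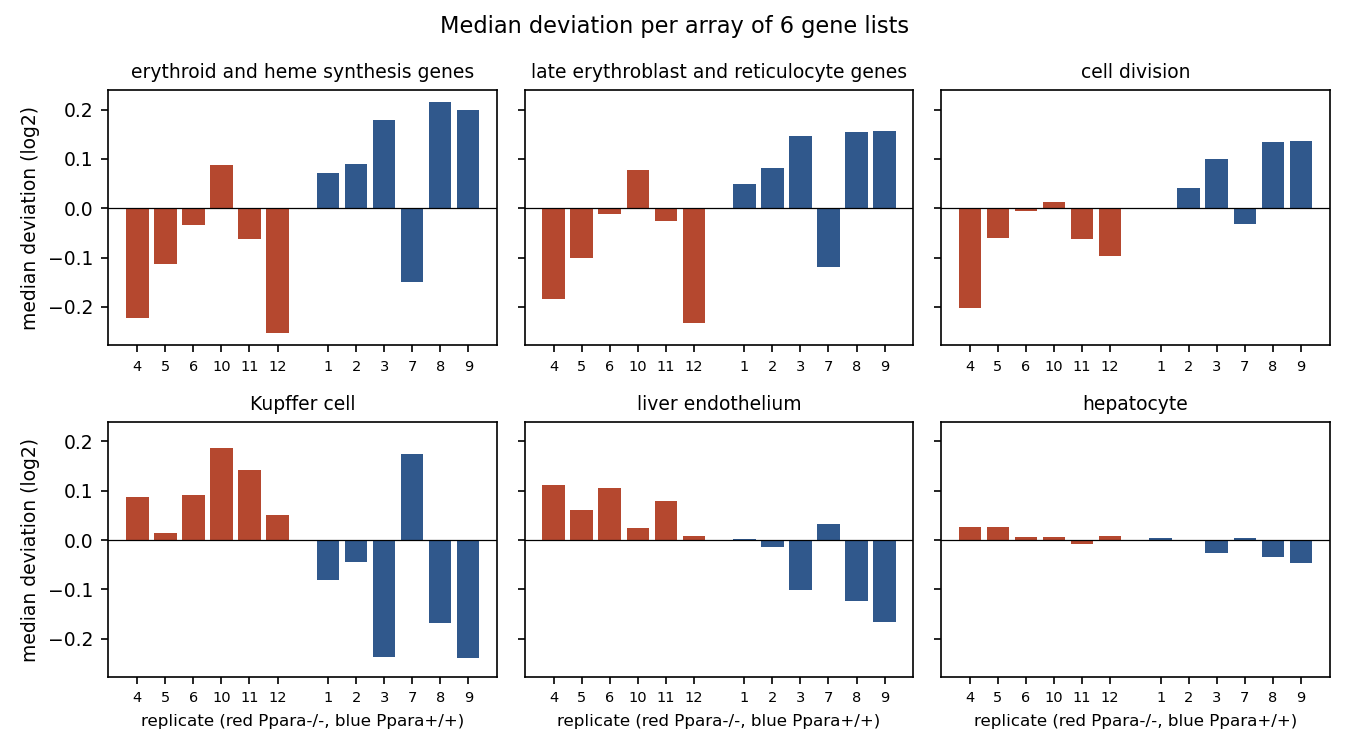
Median deviation from the 12-array mean, in log2 units, of 6 gene lists in each pup (bars, *Ppara*-/- red and *Ppara*+/+ blue, numbered by replicate). Late erythroblast and cell division genes follow the erythroid and heme synthesis genes, Kupffer cell markers lie above 0 in all *Ppara*-/- pups and in *Ppara*+/+ replicate 7, and hepatocyte markers stay between -0.05 and 0.03.

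Over the 12 hepatocyte markers the median was 0.02. *Apoc3*, an apolipoprotein, was the 1 that passed, at 0.82, where 1.99% of all genes were higher by the same test. Granulocyte markers had a median of 0.08 over 12 genes, with *Lcn2*, a binder of iron-carrying siderophores, higher in *Ppara*-/- livers at 0.23 (limma adjusted p = 0.0189). Markers of B-lineage cells (median -0.15 over 9 genes), megakaryocytes (0.05 over 8), progenitors (0.01 over 9) and mast cells (-0.05 over 6) held no gene that passed. In *Ppara*+/+ replicate 7 the B-lineage markers deviated by 0.28, the highest of the 12 arrays.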

How the data were processed

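The authors hybridised liver RNA of 12 pups to Affymetrix mouse gene arrays, 1 array per pup, and deposited log2 signals that they had summarised and normalized by RMA (its version is not known here). These values entered the tests without further normalization. Of the probe sets, 21789 name 1 gene, 1621 several and 12146 none here. Where several probe sets name a gene alone, the one with the highest mean stood for it, and each measured member of the list had exactly 1.

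The limma package (3.58.1, R 4.3.3) was used to fit genotype and sex to every probe set, by lmFit and eBayes with 9 residual and 2.49 prior degrees of freedom. P-values were adjusted by Benjamini-Hochberg across the 35556 probe sets, and genes were called at an adjusted p under 0.05 with no minimum fold. The methods took the pups of each genotype from 3 litters. The crosses gave both genotypes within a litter, but whether the arrays of both genotypes came from the same litters is not stated. Pups were fitted as independent because the labels do not give the litter, so p-values leave out any likeness of litter mates and may be too small or too large. The script was tested on simulated data, with 50 probe sets lowered in *Ppara*-/- pups at each of several sizes. At a limma adjusted p under 0.05 it recovered 8 of 50 at 1.15-fold, 30 at 1.3-fold and 46 at 2-fold. Among the unchanged probe sets 11 were called. Most falls as small as 1.15-fold were thus missed.

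The 34 genes, the related lists and the markers were chosen with earlier results of these data known. Each measured member was named, with the 2 largest differences of each related list and the 8 genes most correlated with the members' median. The alternatives changed 1 choice at a time. The model was fitted without sex, with 4 groups, with a robust variance trend or with array weights. The values were quantile normalized or centred on array medians. Probe sets under the 40th percentile of signal, or those not naming 1 gene, were dropped, or a gene's probe sets averaged. An exact two-sided Mann-Whitney test, unadjusted p-values and a change above 1.3-fold were tried, and each array was left out once. Counts without overlap within each sex were added after seeing the data. Fetal arrays were not analysed here.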

Additional observations from a re-analysis of the deposited data

Results flagged for a closer look

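In 11 of the 66 groups of 6 pups tested, 1 pup lay far from the other 5, and in all 11 it was *Ppara*+/+ replicate 7 at the low end. Chance flags about 5% of such groups, and the genes are not independent of each other, since all were read on the same array. Its log2 signal was 12.36 for *Alas2*, against 12.61 in the next lowest *Ppara*+/+ pup. In the heme pathway it was also 13.30 for *Alad*, 9.40 for *Uros* and 10.70 for *Ppox*. It was 10.12 for *Epor* and 11.13 for *Hemgn*. Among membrane genes it was 13.02 for *Slc4a1*, 11.11 for *Epb42*, 11.12 for *Ank1*, 11.49 for *Rhag* and 11.79 for *Ermap*.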

How the results depend on the processing

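The median log2 fold change of the 32 genes stayed below 0 under every alternative run, and leaving out each array in turn gave -0.25 to -0.16. The count of genes called lower in *Ppara*-/- livers, 0 with all arrays, was 1 after quantile normalization (*Cpox*; 1.3% of all genes were lower), 3 without dim probe sets (*Cpox*, *Epor* and *Bpgm*; 2.53%), 2 with only probe sets of 1 gene (*Epor* and *Bpgm*; 1.65%), 2 with a robust variance trend (*Cpox* and *Epor*; 1.44%), 6 with array weights (*Cpox*, *Epor*, *Bpgm*, *Ppox*, *Icam4* and *Trim10*; 1.94%) and 22 with unadjusted p-values (7.89%), against 1.12% of all genes in the fit as reported. The alternatives with dim or shared probe sets left out test fewer probe sets, and the cause of the others was not tested. Array weights gave *Ppara*+/+ replicate 7 the lowest weight, 0.420. Leaving out each array gave 0 to 9 called genes, against 0.81% to 1.75% of all genes lower, and 0 to 10 genes without overlap. Both were highest without *Ppara*+/+ replicate 7, where 2.51% of all genes were lower without overlap. There was 1 gene without overlap when *Ppara*-/- replicate 10 was left out. The share of all genes without overlap was counted for replicate 7 alone among the arrays left out. Within males, a count added after seeing the data, 27 genes had no overlap, against 8.05% of all genes. No gene was called higher under any of these. Reversed signs were found for the embryonic globins alone. *Hba-x* stood at 0.0046 with array weights, and between -0.10 and 0.032 when each array was left out, the highest without *Ppara*-/- replicate 6. *Hbb-bh1* lay between -0.044 and 0.086 when each array was left out, below 0 without *Ppara*-/- replicate 10 and without *Ppara*+/+ replicate 1. No paired analysis was possible because the genotypes share no replicate numbers and the litter is not in the labels. The number of pups, 6 per genotype, limits the precision of each fold change, and 30 of the 32 genes had a mean signal above the array medians.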
